A study of Mus musculus with 12 samples.

Results

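The Hippo pathway genes around Yap1 are described here by their DNA copy number in a pair of primary murine PDAC (pancreatic ductal adenocarcinoma) lines, 15376T and 14837T. The 10 genes, taken by name from the pathway, are Yap1, Wwtr1, Tead1, Tead4, Lats1, Lats2, Stk3, Stk4, Sav1 and Nf2, out of 20947 autosomal genes that were named in exactly 1 copy-number segment of each line. Each of the 10 was found by its symbol in 1 segment of each line, and they lie on 10 different chromosomes. Both lines were derived from C57BL/6 mice carrying ROSA_rtTA, p48-Cre and Trp53 L/+ among their alleles, and both were kept in doxycycline. p48 (Ptf1a) directs Cre to the pancreas, and these alleles are shared by the lines. Each line is a culture from a mouse tumor and was sequenced as 1 library of genomic DNA after capture with an exome kit made for human genes. The label WT sets these cells apart from a LIN28B KO derivative of 15376T. No dose, time or other treatment separates the lines, and the age of the mice is not given in the sources used here.

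The Hippo pathway is a kinase cascade that restrains growth. Stk3 and Stk4 (the MST kinases), held by the adaptor Sav1 and promoted by Nf2, phosphorylate Lats1 and Lats2, and these phosphorylate the coactivators Yap1 and Wwtr1 (TAZ), which then stay out of the nucleus. Unphosphorylated Yap1 and Wwtr1 enter the nucleus and bind Tead1, Tead4 and their relatives to switch on growth genes. In the pancreas, Yap1 is known for its part in the growth of PDAC.

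The value given here for a gene is that of the segment that covers it. A segment is a stretch of neighboring bins with a common coverage, and its log2 is the ratio of that coverage to a reference. Gains were called by the authors above a log2 of 0.2 and losses at or below -0.25. With 1 library per line there is no replicate, and no p-value is given. The SD of log2 over autosomal segments called at 2 copies, 0.090 in 15376T and 0.095 in 14837T, served as the spread of a value. It covers differences between segments of a library, not between cultures. Its segments were chosen by their call, so the thresholds bound its size, and segments of any length counted alike. The root of the summed squares of both SDs, 0.13, served as the spread of a difference between the lines. The mean depth over autosomal bins was 43.4 in 15376T and 47.5 in 14837T. RNA was not analysed here, so whether the labelled cell type carries its markers was not checked.

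In 15376T, 2 of the 10 genes were called gained (Wwtr1 and Tead4) and 2 lost (Tead1 and Lats2). In 14837T, 4 were called gained (Yap1, Wwtr1, Stk3 and Sav1) and the same 2 genes, Tead1 and Lats2, were called lost. Over all 20947 genes, 9.09% were called gained and 30.1% lost in 15376T, and 21.4% were called gained and 28.8% lost in 14837T. The call differed between the lines for 4 genes. Yap1, Stk3 and Sav1 had more copies in 14837T, where 21.1% of all genes did, and Tead4 had more copies in 15376T, where 8.63% did. With so few genes, these counts describe the 10 genes and do not set them apart from the rest. The median log2 of the 10 genes was -0.032 in 15376T and -0.027 in 14837T, beside -0.023 and -0.045 over all genes.

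**Figure D1:**
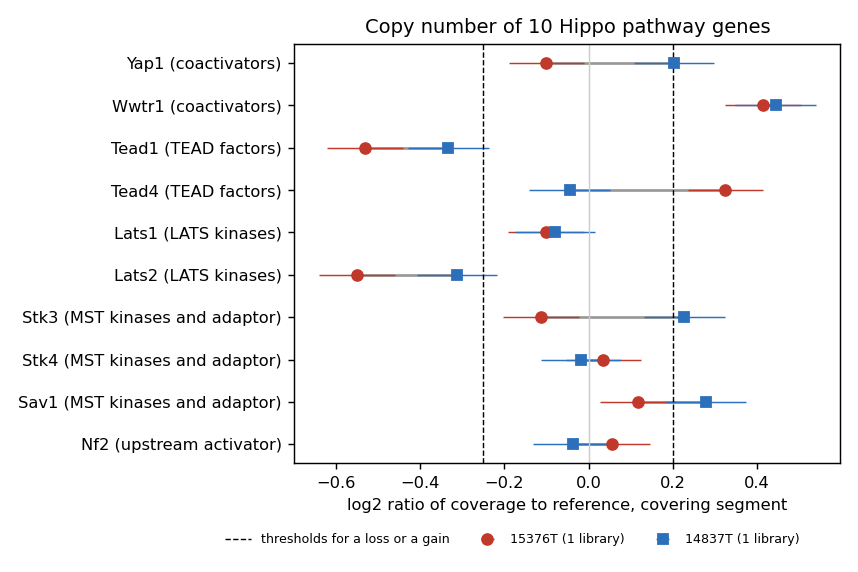
Segment log2 ratio (x axis, log2 scale) of the 10 genes (y axis) in 15376T (circles) and 14837T (squares), 1 library each. Bars are the SD of log2 over autosomal segments called at 2 copies in that line, and dashed lines are the thresholds of -0.25 and 0.2. Wwtr1 lies above the upper line in both lines, Tead1 and Lats2 below the lower one in both, and Yap1 of 14837T lies on the upper line.

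The coactivators stood apart from each other. Wwtr1, on chromosome 3 of GRCm38 from 57455644 to 57575910, was called at 3 copies in both lines, with a log2 of 0.41 in 15376T and 0.44 in 14837T. Yap1, on chromosome 9 from 7931999 to 8004638, was called at 2 copies in 15376T, with a log2 of -0.10, and at 3 copies in 14837T, with a log2 of 0.203. The gain of Yap1 in 14837T therefore lay 0.0025 above the threshold. If a log2 of 0 stands for 2 copies, it amounts to a mean of 2.30 copies per cell, where Wwtr1 would have 2.67 in 15376T and 2.72 in 14837T. The difference of Yap1 between the lines was -0.30 (15376T minus 14837T), larger than the spread of 0.13, and 77.1% of all genes had a smaller one in either direction. The difference of Wwtr1 was -0.030 and lay within the spread. Wwtr1 was carried by a gain of most of its chromosome, since 82.0% of the covered length of chromosome 3 in 15376T and 99.0% in 14837T were called gained. In 15376T the mean log2 of chromosome 9 was -0.37, and the segment of Yap1 stood 0.27 above it. Of the covered length of that chromosome, 62.3% was called lost in 15376T and 37.7% at 2 copies, like Yap1.

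The segment of Yap1 ran from 3133885 to 20444998 in 15376T, with 991 bins and 117 other genes, and from 5358210 to 15914449 in 14837T, with 671 bins and 59 other genes. Yap1 lay 2.57 Mb from the nearer border in 14837T and 4.80 Mb in 15376T. The 5 nearest named genes on either side were in the same segment as Yap1 in both lines. Among them are Birc2 and Birc3, which encode inhibitors of apoptosis and lie 94.9 kb and 58.8 kb away, and the cation channel gene Trpc6. They carry the log2 of Yap1 by construction, so the gain is one of a region of 10.6 Mb, and a change limited to Yap1 was not detectable. Neither gene table lists Yap1, because genes are listed only from an absolute log2 of 0.40.

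Beside Yap1 in 14837T, the segment before it had a log2 of 0.0059 and the one after it 0.045, so the region stood above both of its flanks by more than the spread. It was not the only gain nearby, since a segment beginning 12.4 Mb after the middle of Yap1 had a log2 of 0.36. Of the covered length of chromosome 9, 20.6% was called gained in 14837T, and the Yap1 segment made up 8.75%. The density of bins in the Yap1 segment, 63.6 per Mb, was also higher than that of the flanks, 53.6 and 42.8 per Mb. This relation held along the genome. Of 167 pairs of adjacent autosomal segments of 14837T with at least 100 bins each, the segment with more bins per Mb had the higher log2 in 136 (81.4%, Spearman rho 0.52 between the steps), and in 15376T it did in 86 of 111 (77.5%, rho 0.40). The pairs share segments and are given as a description only. Between the segments of the 10 genes and their flanks of at least 100 bins, the denser segment was the higher in 13 of 14 pairs in 14837T and in 9 of 13 in 15376T. The part of bin density in the calls was not tested.

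**Figure D2:**
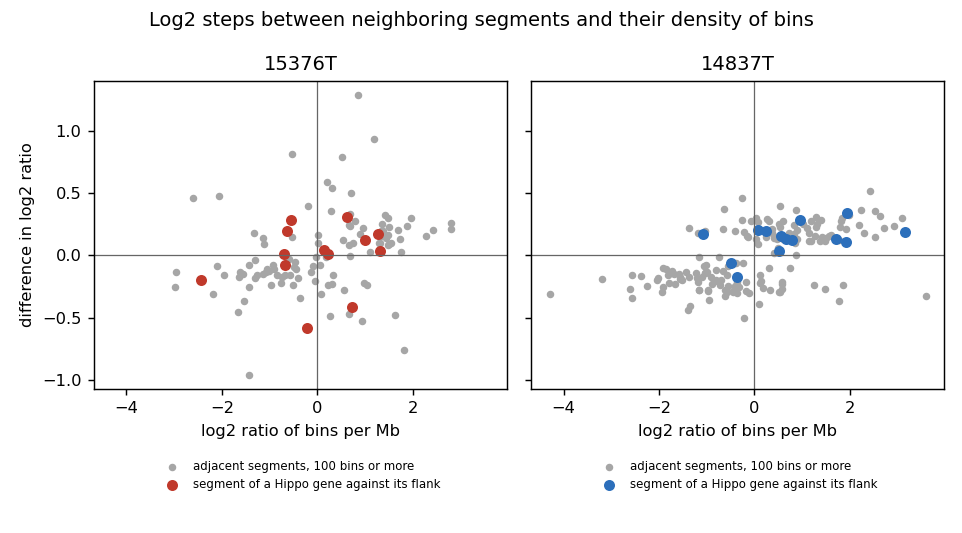
Difference in log2 ratio between neighboring segments (y axis) against the log2 ratio of their bins per Mb (x axis) in 15376T and 14837T. Gray points are adjacent autosomal segments with at least 100 bins (111 and 167 pairs), and colored points set the segment of a Hippo gene against its flank, 13 of 14 of which have the same sign on both axes in 14837T.

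Other parts of the genome with a pair of values like that of Yap1 were ordered by the distance of their log2 in both lines, over 280 pieces on other autosomes. The nearest piece, at a distance of 0.028, lies on chromosome 15 from 3274655 to 41788512 and holds 146 genes, with Stk3 among them. The next, at 0.080 and 0.081, lie on chromosomes 15 and 17 and hold none of the Hippo genes considered here. The likeness rests on 2 values per piece.

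Stk3 and Stk4 encode the kinases at the top of the cascade. Stk3, on chromosome 15 from 34875499 to 35155882, had a log2 of -0.11 in 15376T (2 copies) and 0.23 in 14837T (3 copies). Its difference of -0.34 was larger than the spread and larger than that of Yap1, and 79.5% of all genes had a smaller one. Unlike the Yap1 region, the gained segment was long: it covered 38.5 Mb with 2078 bins in 14837T, and 76.4% of the covered length of chromosome 15 was called gained there. Stk4, on chromosome 2 from 164074113 to 164155524, was called at 2 copies in both lines, with a log2 of 0.035 in 15376T and -0.018 in 14837T. The difference of 0.053 was within the spread.

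Sav1, the adaptor of these kinases, lies on chromosome 12 from 69965009 to 69988141. It was called at 2 copies in 15376T, with a log2 of 0.12, and at 3 in 14837T, with a log2 of 0.28. The segment in 14837T was the shortest that covered any of the 10 genes, 2.18 Mb with 401 bins and 36 other genes, and its depth was 70.4. In 15376T, Sav1 shared a segment of 74.6 Mb with 554 other genes. The difference of -0.16 was only a little larger than the spread of 0.13. In 14837T the flanks had a log2 of 0.090 and -0.0069, with 20.5 and 94.0 bins per Mb beside 184 in the Sav1 segment. Averaged over all segments within 10 Mb of the gene, the log2 was 0.12 in 15376T and 0.14 in 14837T, and the same average for Yap1 was 0.15 in 14837T, so neither gene would be called gained from it. Stk3 kept a log2 of 0.21 by this average and would still be called gained.

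**Figure D3:**
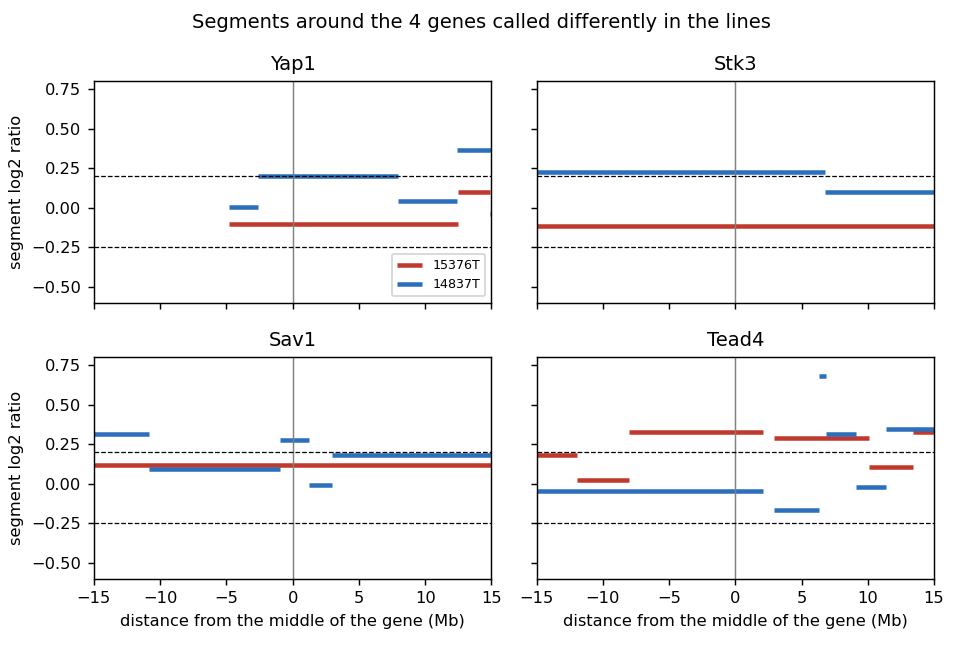
Segment log2 ratio (y axis) by distance from the middle of the gene in Mb (x axis) for Yap1, Stk3, Sav1 and Tead4 in 15376T (red) and 14837T (blue). Dashed lines are the thresholds of -0.25 and 0.2. The 14837T segment over Sav1 is 2.18 Mb long, while that over Stk3 leaves the plot on the left.

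The LATS kinases differed in copy number from each other in both lines. Lats2, on chromosome 14 from 57689662 to 57746212, was called at 1 copy in both, with a log2 of -0.55 in 15376T and -0.31 in 14837T. Lats1, on chromosome 10 from 7681200 to 7716461, was called at 2 copies in both, with a log2 of -0.10 and -0.080, in a segment that had the same borders and 3097 bins in each line. Lats1 was the only gene of the 10 with both borders in common. The loss of Lats2 was part of a loss of most of the chromosome, since 86.4% of chromosome 14 in 15376T and all of it in 14837T were called lost. Against the mean of its chromosome, the segment of Lats2 was lower by a log2 of -0.10 in 15376T and higher by 0.11 in 14837T. The difference of Lats2 between the lines, -0.24, was larger than the spread, although the calls were the same.

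The DNA-binding partners Tead1 and Tead4 went in opposite directions in 15376T. Tead1, on chromosome 7 from 112679356 to 112906784, had a log2 of -0.53 and was called at 1 copy, and Tead4, on chromosome 6 from 128227143 to 128300813, had a log2 of 0.33 and was called at 3. In 14837T, Tead1 was at -0.33 (1 copy) and Tead4 at -0.045 (2 copies). Tead4 had the largest difference of the 10 genes, 0.37, with a smaller one in 83.9% of all genes, and it was among 3 with the higher value in 15376T, beside Stk4 and Nf2. Tead1, like Lats2, lay on a chromosome lost nearly throughout: the whole of chromosome 7 in 15376T and 99.5% of it in 14837T were called lost. In 15376T its segment held 1608 other genes, and in 14837T it held 34. The segment of Tead4 in 15376T was 10.2 Mb long with 1647 bins and ended at 130380665, the same position as in 14837T, where it covered 127.0 Mb. In 15376T the segment before it had a log2 of 0.022. The one after it had 0.29, also above the threshold for a gain. Of the covered length of chromosome 6, 25.2% was called gained in 15376T.

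Nf2, which encodes merlin, an upstream activator of the LATS kinases, lies on chromosome 11 from 4757639 to 4849544. It was called at 2 copies in both lines, with a log2 of 0.056 in 15376T and -0.036 in 14837T, over segments of 96.5 Mb and 68.0 Mb. The difference of 0.092 was within the spread. A loss that covered only Nf2 was not detectable in segments of this length.

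**Figure D4:**
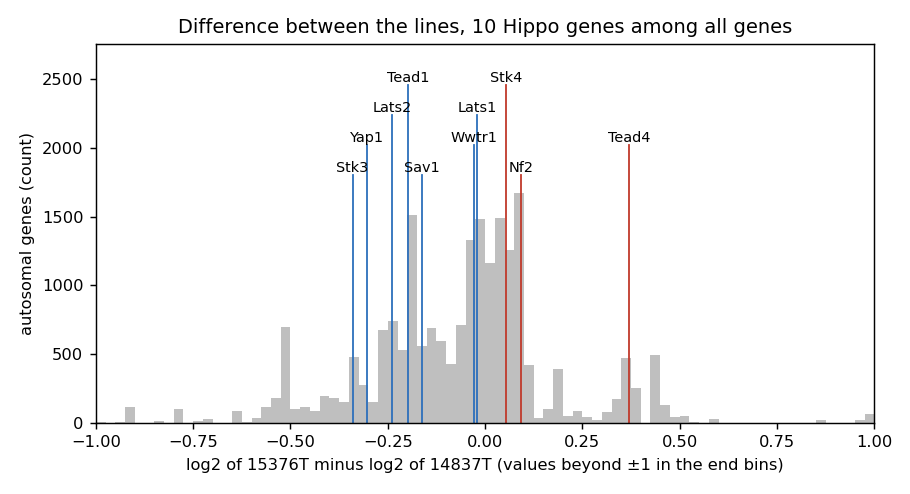
Log2 of 15376T minus log2 of 14837T (x axis) for 20947 autosomal genes (gray bars, count of genes on the y axis), with the 10 Hippo genes marked by lines. Tead4 lies farthest to the right at 0.37 and Stk3 farthest to the left at -0.34.

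Across the 10 genes, the difference between the lines was larger than the spread for 6: Yap1, Tead1, Tead4, Lats2, Stk3 and Sav1. Over all genes it was larger in 49.6%, with a median difference of -0.035, and 5% of genes lay below -0.51 and 5% above 0.39. None of the 10 genes lay beyond these limits. The depth of the segments, set against the mean depth of each line and used without the reference, gave a difference in the same direction for all 10 genes except Wwtr1 and Lats1, whose differences of log2 were within the spread. It was -0.27 for Yap1, -0.32 for Stk3, -0.37 for Sav1 and 0.56 for Tead4.

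The gene tables give the depth over the bins of a gene itself, and they list Wwtr1 in both lines and Tead1 and Lats2 in 15376T. The own depth of Wwtr1 over 9 bins was 40.0 in 15376T and 44.2 in 14837T. Relative to the mean depth of each line this was -0.12 and -0.10 on the log2 scale, so the gene itself was covered below the mean, although its segment was called gained. Genes of the same segment with at least 5 bins had a median depth of 76.1 in 15376T (47 genes) and 80.3 in 14837T (21 genes). Depths of different genes are not comparable as copy number, since capture differs between genes. Set against each other, the own depths of Wwtr1 in 15376T and 14837T gave a log2 difference of -0.014, beside the segment difference of -0.030. In 15376T, Tead1 had a depth of 38.4 over 17 bins, and Lats2 had 28.3 over 11 bins. The bins of Tead1 began at 112839388, so they left out the first part of the gene as RefSeq gives it.

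BAF (B-allele fraction), which gives the portion of reads at a segment's variant sites that differ from the reference, was low for most of the genes. In 15376T it was under 0.2 for 8 of the 10 genes, between 0.023 and 0.17, and in 14837T for 9, between 0.027 and 0.082. The autosomal median, weighted by length, was 0.077 in 15376T and 0.061 in 14837T. Both medians lie under 0.2 as well, so a low BAF was not particular to these genes. Tead4 and Nf2 were the exceptions in 15376T. Tead4 had a BAF of 0.74 in 15376T and 0.40 in 14837T, and no other gene of the 10 was given a second allele by the authors' split of copies, as 2 and 1 copies in 15376T and 1 and 1 in 14837T. In 15376T it lay at the end of a stretch of 4 segments, from 87158067 to 130380665 on chromosome 6, with a BAF between 0.74 and 1. Over this stretch the log2 ran from -0.018 to 0.33. Nf2 had a BAF of 1 in 15376T and 0.027 in 14837T, at the same called copy number. Segments with a BAF over 0.7 made up 6.74% of the autosomal length with a BAF in 15376T and 0.780% in 14837T. The share in 15376T includes the segment of Nf2 (96.5 Mb) and the stretch with Tead4 (43.2 Mb), so it is not a background apart from them. The number of variants behind a BAF is not given, so no interval could be set on it.

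**Figure D5:**
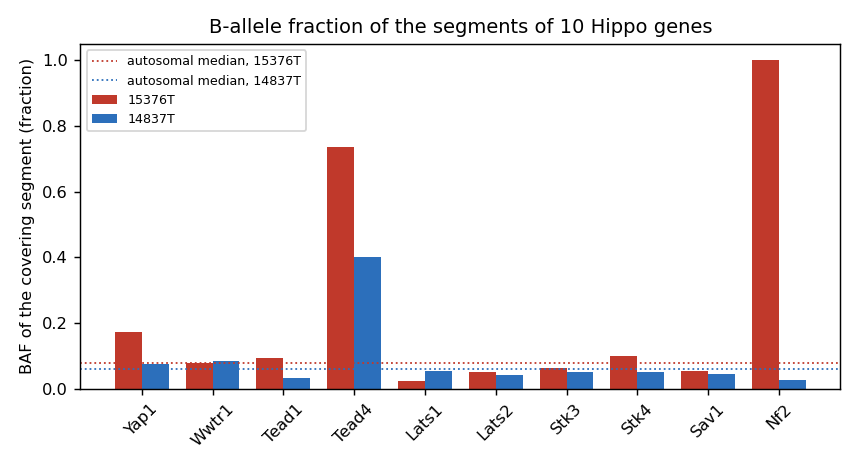
BAF of the covering segment (y axis, fraction from 0 to 1) for the 10 genes in 15376T (red) and 14837T (blue), with the length-weighted autosomal medians as dotted lines. Nf2 at 1 and Tead4 at 0.74 stand far above the other genes in 15376T, and Tead4 at 0.40 does in 14837T.

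A list of 25 further genes of the pathway was set beside the 10. In 15376T, 3 of them were called gained, 8 lost and 14 at 2 copies, and in 14837T, 6 were called gained, 4 lost and 15 at 2 copies. As shares, 12% were gained and 32% lost in 15376T, and 24% and 16% in 14837T, beside the shares over all genes given above. The call differed for 9 (36%). Of these, 8 had more copies in 14837T, where 21.1% of all genes did, and 1 in 15376T, where 8.63% did. By the average within 10 Mb the call differed for 5 (Tead3, Rassf1, Amotl2, Limd1 and Ankrd1), and no share over all genes is given for it. Of the 25, 10 lay in the segment of one of the 10 genes in 15376T and 7 in 14837T. In both lines, 5 of the 25 lay in the segment of one of the 10 genes and add no value of their own: Amotl1 with Yap1, Frmd6 with Sav1, Ajuba with Lats2, Ccn2 with Lats1 and Wwc1 with Nf2. Amotl1, which encodes a protein that holds Yap1 outside the nucleus, was thus called gained in 14837T together with Yap1.

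By role, of the remaining TEAD genes, Tead3 was at 0.074 in 15376T (2 copies) and 0.34 in 14837T (gained). Tead2 was at -0.53 in 15376T (lost) and -0.238 in 14837T, where the call of 2 copies lay 0.012 above the threshold for a loss. Its segment there covered 0.698 Mb between flanks at -0.46 and -0.43, and by the average within 10 Mb, -0.44, it would be called lost in 14837T too. Among the kinase cofactors and upstream kinases, Mob1a, Mob1b, Taok1, Taok3 and Map4k4 were called at 2 copies in both lines and Taok2 was called lost in both. Amotl2 (-0.62) and Limd1 (-0.59) were called lost in 15376T and were at 2 copies in 14837T (-0.058 and -0.075). The scaffold gene Rassf1 had the same calls (-0.46 and -0.026). These 3 genes lie on the distal part of chromosome 9, the chromosome of Yap1. The scaffold gene Wwc2, which encodes a relative of KIBRA, had the highest log2 of the 25 genes, 0.89 in 15376T, and -0.11 in 14837T. It was called at 4 copies in 15376T in a segment of 4.13 Mb, and the average within 10 Mb, 0.14, would give 2 copies. Its own depth in 15376T was 69.8 over 27 bins, beside a median of 108.7 over the 26 genes of the segment with at least 5 bins. Of the protocadherins, Fat4 was called gained in both lines (0.43 and 0.43) and Dchs1 lost in both (-0.53 and -0.54), on chromosomes 3 and 7. Ptpn14 (-0.029 and -0.059) and Vgll4 (0.182 and -0.045) were called at 2 copies in both lines. Vgll4 lay just under the threshold for a gain in 15376T and would be called gained there after recentring. Its difference of 0.23 was larger than the spread.

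The target genes of Yap1 and Wwtr1 did not share a copy-number call, and their expression was not analysed. Ccn1 (Cyr61) was called gained in both lines, with a log2 of 0.65 and 0.69, and lies on chromosome 3 like Wwtr1. Ankrd1 was at 2 copies in 15376T (0.065) and called gained in 14837T (0.48). Axl was called lost in both lines, at -0.53 and -0.31, and Ccn2 and Birc5 were called at 2 copies in both.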

How the data were processed

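Genomic DNA of the lines 15376T and 14837T was captured and sequenced. The methods name a NimbleGen and the labels an Agilent capture kit, both made for human exons. A further allele of the mice is not reported here. The 9 RNA libraries and the tail DNA were not analysed here. The deposited log2 is a ratio of coverage to a reference, the deposited BAF is a fraction, the deposited depth is a mean coverage signal, and the deposited weight is a score that was not used. Aligner, caller and reference are not given in the sources used here. The columns are those of CNVkit, and the authors' calls of up to 3 copies followed its default thresholds with 0 exceptions on autosomes. The spread between bins is not given, so a segment has no interval.

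The covering segment of a gene was found by symbol, and its position taken from RefSeq on GRCm38.p6 (mm10 per the labels). All 35 genes matched, by current or older symbol. Starts were written counting from 1. Genes named were the 10, the 25 further genes, the 5 nearest to Yap1 on either side and the pieces most like Yap1. Members and lists were chosen with earlier results of these data known. Alternatives were higher call thresholds (0.3 and 0.5 on the log2 scale), recentred log2, segment depth, own depth, and segments of at least 100 bins, and, added after the data were seen, the mean log2 within 10 Mb. Comparisons of bin density were also added then. The code was run on simulated segments whose log2 lay far from the thresholds. That checks the code only and says nothing about calls near a threshold or about the authors' calls. Python 3.11.15, numpy 2.4.6, pandas 2.3.3, scipy 1.17.1 and matplotlib 3.10.9 were used.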

Additional observations from a re-analysis of the deposited data

How the results depend on the processing

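The gains of Yap1, Stk3 and Sav1 in 14837T rest on the threshold. In 15376T the 2 gains (Wwtr1 and Tead4) held at 0.3, and the 2 losses (Tead1 and Lats2) held at every setting. From an absolute log2 of 0.3, 1 of the 10 genes (Wwtr1) was gained in 14837T in place of 4, and the call differed between the lines for 1 (Tead4) in place of 4. From 0.5, 0 were gained in either line and 0 lost in 14837T, and the call differed for 2 (Tead1 and Lats2). Of the 25 further genes, 1 was then gained and 1 lost in 14837T. With the mean log2 within 10 Mb, added after the data were seen, 2 of the 10 were gained in 14837T, the call differed for 2 (Tead4 and Stk3), the call of the further genes differed for 5 in place of 9, and the difference of Sav1 was -0.018 in place of -0.16. Shares over all genes at these other settings are not given, so the counts do not set the genes apart from the rest. From segment depth, the difference was 0.11 for Wwtr1, 0.56 for Tead4 and -0.37 for Sav1. The sign turned for Wwtr1 and for Lats1 (0.043 in place of -0.021), whose differences were within the spread. Recentring shifts all differences by the same amount. Every segment of the 10 genes held at least 100 bins and Wwtr1 at least 5, so these filters removed nothing and say nothing about stability. The depth of single bins is not given, which limits all calls near a threshold.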
